A study of Mus musculus with 6 samples.

Results

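The nuclear-encoded genes of the mitochondrial respiratory chain were examined, complex by complex, in splenic regulatory T (Treg) cells with and without BAF60b. Members were chosen by gene symbol: names that begin with Nduf, Uqcr, Cox4 to Cox8 or Atp5, together with Sdha, Sdhb, Sdhc, Sdhd, Cyc1 and Cycs. This matched 103 of the 54232 rows of the count table, or 102 symbols, because Atp5o is listed under 2 Ensembl identifiers with identical counts and was counted once. Of the 102 genes, 86 had a mean of at least 2 CPM over the 6 libraries (CPM, a read count scaled to the library total) and form the set described here. All 86 passed the filter on low counts. The 16 left out were 8 processed pseudogenes and 8 protein-coding genes. Just inside the limit lay Ndufb4 at 2.87 CPM, Ndufaf6 at 3.16 CPM and Atp5s at 3.52 CPM. Just outside it lay the pseudogene Ndufab1-ps at 0.899 CPM, Cox6b2 at 0.644 CPM and the pseudogene Atp5l2-ps at 0.614 CPM.

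Treg cells are the T cells that restrain immune responses. GFP-positive Treg cells were isolated from spleens of wild-type mice (WT, 3 libraries) and of mice with a conventional, that is whole-body, knockout of BAF60b (KO, 3 libraries), and their total RNA was sequenced. BAF60b, encoded by Smarcd2, is a subunit of the SWI/SNF chromatin remodelling complex. Because the knockout was not restricted to Treg cells, the other cells of these mice carried it too. The sources used here give neither the ages of the mice nor the allele that carries GFP nor the deleted part of Smarcd2. The labels do not say whether each library is a mouse of its own, and p-values therefore cover only the spread between these libraries.

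Smarcd2 had 204.4, 199.3 and 191.9 CPM in WT and 58.1, 57.5 and 59.0 CPM in KO (log2 fold change -1.77, edgeR adjusted p = 6.77e-08), so reads of the targeted gene remained in KO. Totals ranged from 18167053 to 22502804 reads. Foxp3, which defines Treg cells, had at least 10207 reads in every library. Of 6 Treg and T cell identity genes 1 was called, Ikzf2, a transcription factor of Treg cells, which was higher in KO (log2 fold change 0.42, adjusted p = 0.00527). The summed level of 6 B cell markers was 14.3 to 17.4 CPM in WT and 8.53 to 11.6 CPM in KO, with Pax5 at 0 to 7 reads, and the receptor component Cd79b was called lower in KO (log2 change -0.69, adjusted p = 0.0106). The sums of 5 CD8 T and NK cell markers were 23.4 to 25.3 CPM in both genotypes, but the NK receptor Klrb1c was called lower in KO (log2 change -1.14, adjusted p = 0.0353). Of the other markers in this list, Cd8b1 also had an estimate below 0 (-0.10), while Nkg7 (0.28) and Cd8a (0.71) lay above 0. Ncr1 had 0 reads in each WT library and 4, 5 and 1 reads in KO. Without WT 1 the call of Cd79b was lost (adjusted p = 0.0571), and that of Klrb1c was lost without any WT library, KO 2 or KO 3 (up to 0.146). The sum of 7 myeloid markers was 20.3 to 25.4 CPM in WT and 11.2 to 71.9 CPM in KO. That of 6 erythroid markers was 0.955 to 3.23 CPM in WT and 0.663 to 12.5 CPM in KO, and both were highest in KO 2. Reads of 4 Y-linked genes were at 0 in WT 1 and KO 2 and between 143.1 and 450.3 CPM in the other libraries, with the highest value in KO 3, so the libraries of a genotype were not all repeats of 1 sample. The part of these differences in the results below was not tested, except in a fit with the Y-linked share as a covariate. That fit called 0 members, and 951 genes among all those tested.

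The respiratory chain carries electrons from NADH and succinate to oxygen in the inner mitochondrial membrane and pumps protons as it does so. Complex I oxidizes NADH, complex II oxidizes succinate, complex III passes electrons from ubiquinol to cytochrome c, complex IV reduces oxygen, and complex V, the ATP synthase, uses the proton gradient to make ATP. Most subunits are encoded in the nucleus and the rest in mitochondrial DNA. Treg cells are known to rely on oxidative phosphorylation more than conventional effector T cells do.

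The factor NRF1 is known to bind promoters of many nuclear respiratory chain genes, and its recognition letters were searched in RefSeq promoter windows (GRCm38.p6, 250 bases before to 50 bases after the start). Windows were matched for 73 of the 86 members. The letters GCATGCGC or, on the other strand, GCGCATGC stood in 13 of the 73 (17.8%), beside 6.27% of the tested genes with a window and 2.71% of all 32851 windows. The YY1 letters AAGATGGCG or CGCCATCTT stood in 8 members (10.96%, beside 3.75% of tested genes and 1.40% of all windows), and the ETS letters CCGGAAGT or ACTTCCGG in 5 members (6.85%, beside 9.74% and 3.89%). These matches describe letters and not binding. Shown here are the windows of Atp5k, Cycs and Cox6a1. Atp5k and Cycs had the highest and the lowest level in KO 3 relative to the other libraries. Of the 5 members with an unadjusted p under 0.05 in edgeR, only Cox6a1 was found to hold the NRF1 letters. The 3 windows thus do not stand for the members, most of which lacked these letters. The windows lie on the minus strand at chr5:108434350-108434649 (Atp5k), chr6:50566520-50566819 (Cycs) and chr5:115348909-115349208 (Cox6a1), and capitals mark the NRF1 letters.
Atp5k: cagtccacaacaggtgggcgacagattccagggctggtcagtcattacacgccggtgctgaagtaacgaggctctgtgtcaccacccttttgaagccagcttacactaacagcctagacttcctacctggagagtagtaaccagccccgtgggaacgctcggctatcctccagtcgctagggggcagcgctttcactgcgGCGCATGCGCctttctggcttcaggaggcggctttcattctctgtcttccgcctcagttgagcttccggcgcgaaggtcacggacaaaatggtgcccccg
Cycs: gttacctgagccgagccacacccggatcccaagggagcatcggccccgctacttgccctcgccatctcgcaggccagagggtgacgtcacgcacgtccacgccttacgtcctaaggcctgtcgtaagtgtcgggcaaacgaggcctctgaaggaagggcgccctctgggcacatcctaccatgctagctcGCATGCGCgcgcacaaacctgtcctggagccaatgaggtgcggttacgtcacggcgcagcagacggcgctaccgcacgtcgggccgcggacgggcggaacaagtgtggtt
Cox6a1: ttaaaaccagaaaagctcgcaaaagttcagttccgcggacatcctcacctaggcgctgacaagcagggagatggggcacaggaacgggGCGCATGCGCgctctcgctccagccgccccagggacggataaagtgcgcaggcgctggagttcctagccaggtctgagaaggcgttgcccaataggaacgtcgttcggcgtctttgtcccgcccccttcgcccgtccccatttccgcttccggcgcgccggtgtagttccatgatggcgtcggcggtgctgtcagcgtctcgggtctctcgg
In Atp5k and Cox6a1 the capitals hold 2 overlapping matches on opposite strands, and in Cycs 1 match. They begin 50 bases before the start in Atp5k, 60 in Cycs and 162 in Cox6a1, and none of the 3 windows holds the ETS or YY1 letters searched.

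None of the 86 genes passed the test between genotypes. By edgeR's quasi-likelihood test 0 of 86 were called at an adjusted p under 0.05, where 6.45% of all 13602 tested genes were called (3.25% higher and 3.2% lower in KO). DESeq2 called 0 members and 7.37% of all genes, and limma-voom called 0 members and 870 of the 13602 genes. At an unadjusted p under 0.05 there were 5 of the 86 members in edgeR, beside 20.4% of all genes. There were 3 members in DESeq2 and 6 in limma-voom, for which the share of all genes was not counted. Log2 fold changes (KO minus WT) lay between -0.35 and 0.48, with a median of -0.02 beside 0.00 for all genes tested. That median was 0.01 without WT 3, -0.05 without WT 2 and -0.05 without KO 3. For 82 of the 86 the 95% interval lay within 1.5-fold in either direction; the exceptions were Ndufb4, Ndufb9, Atp5s and Atp5k. Estimates were below 0 for 53 members and above 0 for 33, where 48.9% of all genes were below 0.

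Summed over all members, the level was 6295, 6118 and 6568 CPM in WT 1, 2 and 3 and 6183, 6047 and 6221 CPM in KO 1, 2 and 3 (mean ± SD, 6327 ± 227 in WT and 6150 ± 91.4 in KO, n = 3 each). The genotypes overlap, and the KO mean was 0.972 times the WT mean. Here and below, CPM of single libraries are scaled with edgeR's TMM factors. In bulk RNA, fewer cells with a transcript and less RNA per cell cannot be told apart.

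**Figure D1:**
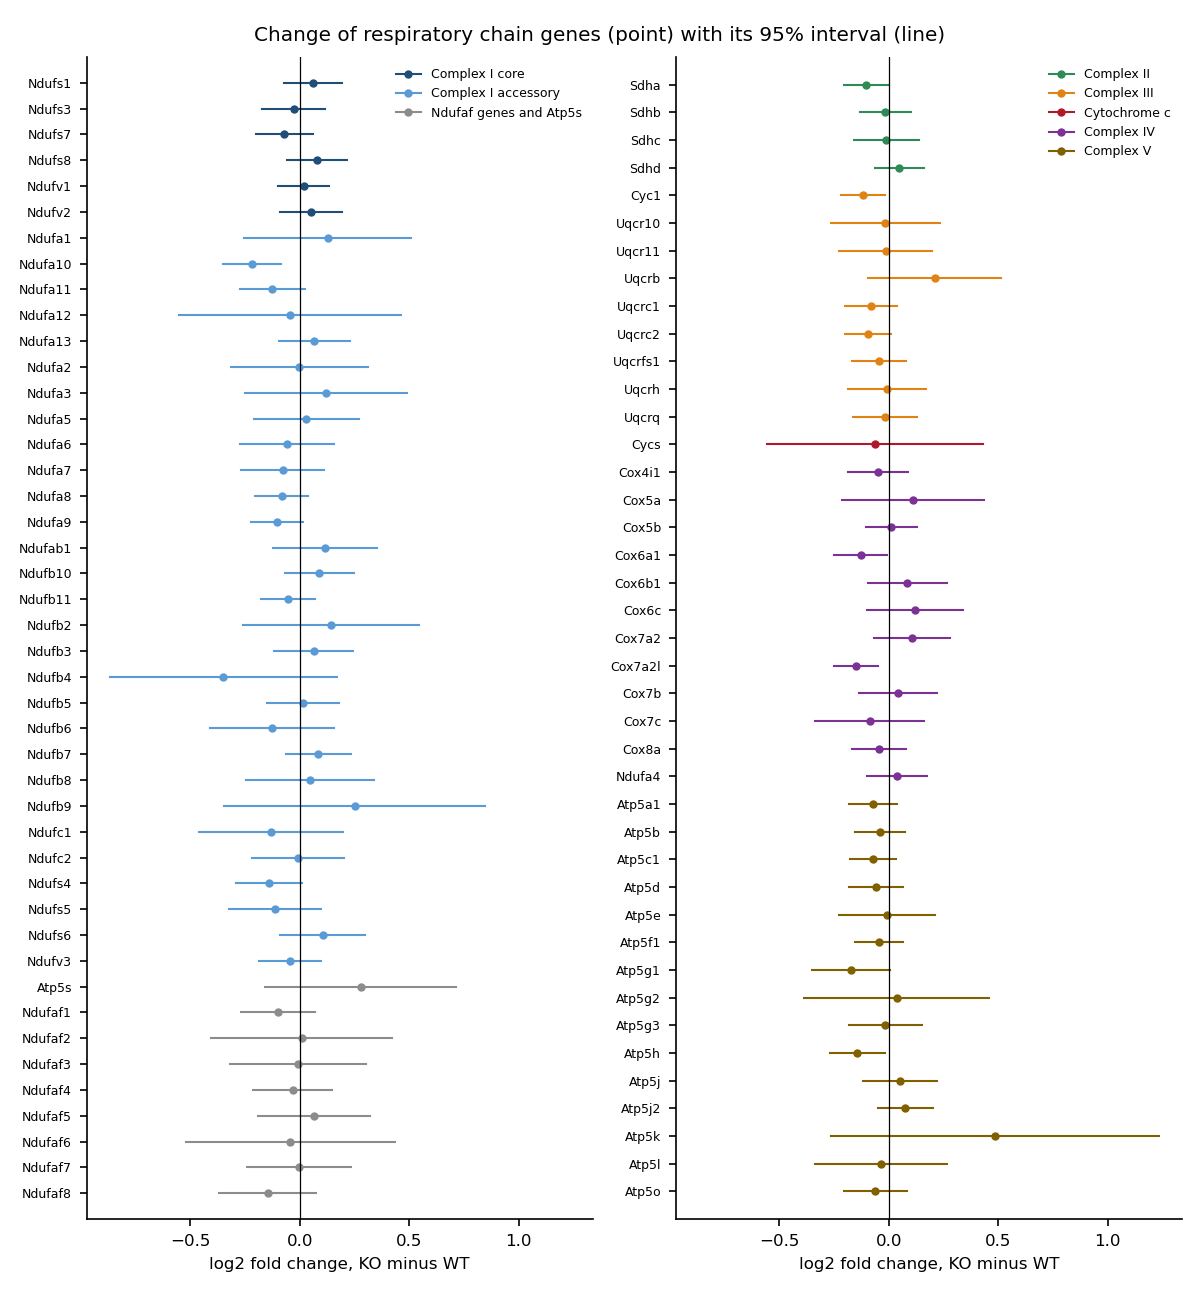
Log2 fold change (KO minus WT, horizontal axis) of 85 of the 86 members (vertical axis) as a point, with its 95% interval from edgeR as a line, coloured by complex. None of those shown was called; points lie between -0.35 and 0.48, and Atp5k has the widest interval, from -0.27 to 1.23.

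Complex I had 36 subunit genes in the set. The 7 core subunits, which hold the flavin, the iron-sulfur clusters and part of the ubiquinone site, had log2 fold changes between -0.07 and 0.08, 4 above and 3 below 0. Their summed level was 476.4, 470.2 and 468.5 CPM in WT and 467.1, 481.3 and 476.0 CPM in KO, so the genotypes overlap. Ndufs8, an iron-sulfur subunit, had the smallest p of the core (log2 fold change 0.08, 95% interval -0.06 to 0.22, adjusted p = 0.528). Ndufs7, which carries the cluster next to the ubiquinone site, had 36.1, 37.8 and 36.5 CPM in WT and 34.97, 35.6 and 34.5 CPM in KO. With TMM scaling each KO value of Ndufs7 was below every WT value, with a log2 fold change of -0.07 (adjusted p = 0.566). This order rests on the scaling. Over library totals alone, KO 2 (700 of 19365472 reads) lay above WT 3 (723 of 20125951 reads). For Ndufs1, the largest core subunit encoded in the nucleus, the log2 change was 0.06 (adjusted p = 0.625).

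The 29 accessory subunits of complex I, which surround the core and stabilise it, had a median log2 fold change of -0.01, with 13 estimates above and 16 below 0. Single libraries turned this median, which was 0.05 without KO 2, 0.02 without WT 3, -0.07 without WT 2 and -0.08 without KO 3. Ndufa10, an accessory subunit related to nucleoside kinases (ENSMUSG00000026260, chromosome 1, 92439010 to 92473860, minus strand, mm10), had the smallest p of all members. It had 77.3, 79.3 and 83.0 CPM in WT 1, 2 and 3 and 72.3, 69.9 and 64.0 CPM in KO 1, 2 and 3. The KO values did not overlap the WT values, with KO 3 the lowest. Its log2 fold change of -0.22 (SE 0.06, 95% interval -0.35 to -0.09) did not pass (edgeR adjusted p = 0.0587). Without the filter on low counts, where 6.58% of all genes were called, it passed (adjusted p = 0.0137), and with any 1 library left out the adjusted p lay between 0.0519 and 0.188. Neither Ndufs4, whose loss causes complex I deficiency (log2 fold change -0.14, adjusted p = 0.275), nor Ndufa9, near the ubiquinone site (-0.10, adjusted p = 0.328), passed. Ndufa6, a LYR-motif subunit, had the highest level per kilobase of the accessory subunits (84.4 CPM per kb in WT) and a log2 fold change of -0.06 (adjusted p = 0.797). The sum of the accessory subunits was 884.2, 851.5 and 939.5 CPM in WT and 862.8, 830.6 and 934.8 CPM in KO, highest in replicate 3 of both genotypes.

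The assembly factors Ndufaf1 to Ndufaf8 help to build complex I without staying in it, and with Atp5s they form a group of 9 genes outside the mature complexes. Their log2 fold changes lay between -0.15 for Ndufaf8 and 0.28 for Atp5s, and 0 were called. The group was expressed at a lower level than the subunits, with a median of 8.17 CPM per kb in WT against 39.2 for the core and 37.1 for the accessory subunits of complex I. Their sum was 102.4, 100.5 and 108.4 CPM in WT and 96.0, 105.8 and 104.2 CPM in KO.

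Complex II, succinate dehydrogenase, has no mitochondrially encoded subunit and is also an enzyme of the citric acid cycle. Its summed level was 502.2, 492.9 and 507.2 CPM in WT and 492.1, 487.1 and 465.3 CPM in KO. With TMM scaling all KO sums lay below all WT sums, that of KO 1 by less than 1 CPM. This order rests on the scaling, whose factors were 1.016 in KO 2 and 0.996 in WT 2. Sdha, the flavoprotein (chromosome 13, 74322254 to 74350280, minus strand), had 291.9, 291.4 and 298.7 CPM in WT and 283.7, 273.2 and 264.4 CPM in KO. These values did not overlap, with KO 3 the lowest, and the log2 fold change of Sdha was -0.10 (95% interval -0.21 to 0.00, adjusted p = 0.246). The iron-sulfur subunit Sdhb (log2 fold change -0.02, adjusted p = 0.907) and the membrane anchors Sdhc (-0.01, adjusted p = 0.950) and Sdhd (0.05, adjusted p = 0.650) overlapped between genotypes. The signs for Sdhb and Sdhc turned under other settings, Sdhc also under other scalings.

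In complex III 8 of 9 estimates were below 0 (range -0.12 to 0.21, median -0.02). The median was 0.01 without WT 3, 0.00 without KO 1, -0.08 without WT 2, -0.06 without KO 3 and -0.04 without WT 1. Cyc1, which carries the heme that reduces cytochrome c (ENSMUSG00000022551, chromosome 15, 76343523 to 76346260, plus strand), had 77.8, 75.6 and 76.3 CPM in WT and 71.2, 70.3 and 69.9 CPM in KO. Each genotype's values lay close together and did not overlap those of the other. For Cyc1 the estimate was -0.12 on the log2 scale (SE 0.05, adjusted p = 0.175). The core proteins Uqcrc1 (log2 fold change -0.08, adjusted p = 0.436) and Uqcrc2 (-0.10, adjusted p = 0.301) did not pass either. Uqcrb, near the ubiquinone pocket, was the 1 member of the complex above 0 (log2 fold change 0.21, 95% interval -0.10 to 0.51, adjusted p = 0.446); it was chosen for mention after its values were seen. It had 19.6, 17.4 and 23.6 CPM in WT and 24.1, 19.3 and 26.6 CPM in KO, so the genotypes overlap. Its log2 fold change was 0.10 without KO 3. Of the 50-base stretches of its transcript, 43.2% also stood in transcripts of 4 other genes, so its counts are uncertain. Uqcrh, the hinge protein gene, had the highest level per kilobase in the complex (224.7 CPM per kb in WT) and a log2 fold change of -0.01 (adjusted p = 0.968), whose sign turned under library size and upper-quartile scaling.

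Cytochrome c, encoded by Cycs, carries electrons from complex III to complex IV and triggers apoptosis when it leaves the mitochondrion. It had 11.02, 14.6 and 11.2 CPM in WT and 14.7, 13.2 and 7.47 CPM in KO. KO 3 had the lowest value of all libraries and KO 1 the highest, so the spread within KO exceeded the difference between genotypes (log2 fold change -0.06, 95% interval -0.56 to 0.43, adjusted p = 0.911). Without KO 3 the log2 fold change was 0.18. Of its transcript, 28.2% of the 50-base stretches also stood in transcripts of 43 other genes, so its counts are uncertain.

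Complex IV had 12 members with log2 fold changes between -0.15 and 0.12, 7 above and 5 below 0. Cox7a2l is a relative of the Cox7a subunits that has been linked to supercomplexes of complexes III and IV (ENSMUSG00000024248, chromosome 17, 83501919 to 83514333, minus strand). It had 337.4, 339.3 and 354.2 CPM in WT and 312.3, 310.4 and 305.8 CPM in KO. All KO values lay below all WT values. Its log2 fold change of -0.15 (SE 0.04, 95% interval -0.25 to -0.05) did not pass (adjusted p = 0.0798). Cox7a2l had the highest level per kilobase of the complex, 319.4 CPM per kb in WT. Cox6a1, the widely expressed form of subunit 6a (chromosome 5, 115345642 to 115348981, minus strand), had 83.7, 77.3 and 85.7 CPM in WT and 77.7, 73.6 and 74.2 CPM in KO. KO 1 lay inside the WT range, and the log2 fold change of Cox6a1 was -0.13 (adjusted p = 0.216). The sum of the complex was 1041, 999.5 and 1103 CPM in WT and 1010, 982.4 and 1058 CPM in KO.

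Several subunits of complex IV are encoded by paralogs, of which 1 form is widespread and others are enriched in heart, muscle, lung or testis. Cox4i1 had 148.1, 137.7 and 146.7 CPM in WT and 139.8, 128.6 and 149.6 CPM in KO (log2 fold change -0.05, adjusted p = 0.724), where Cox4i2 had 0 reads in all libraries. A count of 0 allows up to 3 reads, or 0.133 to 0.165 CPM by library, for counting error only. Cox7a2 was at 34.4 to 42.5 CPM (log2 fold change 0.10, adjusted p = 0.512), and Cox7a1, the heart and muscle form, had 51 reads in all 6 libraries together. Cox6b1 was at 68.2 to 88.4 CPM (log2 fold change 0.08, adjusted p = 0.628), against 79 reads in all for Cox6b2. Cox6a2, the heart and muscle form of subunit 6a, had 0, 1 and 2 reads in WT and 5, 6 and 4 reads in KO, too few for the filter on low counts. Cox8a was at 74.4 to 83.7 CPM (log2 fold change -0.05, adjusted p = 0.699), with 2 reads in all for Cox8b and 0 for Cox8c. Cox7b was at 58.4 to 70.1 CPM (log2 fold change 0.04, adjusted p = 0.832), with 0 reads for Cox7b2. Ndufa4, first described in complex I and now assigned to complex IV, was at 53.7 to 60.9 CPM (log2 fold change 0.04, adjusted p = 0.804), with 2 reads in all for Ndufa4l2. In both genotypes the widespread forms thus held nearly all reads of these paralogs.

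Complex V had 15 members, 11 with an estimate below 0 (median -0.04, range -0.17 to 0.48). The median was 0.00 without WT 3, and -0.08, -0.07 and -0.07 without WT 2, WT 1 and KO 3. The sum was 2552, 2491 and 2675 CPM in WT and 2545, 2458 and 2462 CPM in KO. Atp5b, the catalytic beta subunit, had the highest level per kilobase of all 86 members, 402.5 CPM per kb in WT, with a log2 fold change of -0.04 (adjusted p = 0.730). Atp5h, subunit d of the peripheral stalk (chromosome 11, 115415689 to 115419962, minus strand), had 116.2, 116.3 and 127.8 CPM in WT and 111.4, 112.0 and 102.9 CPM in KO. Its values did not overlap between genotypes (log2 fold change -0.14, SE 0.06, adjusted p = 0.185), and 47.9% of the 50-base stretches of its transcript also stood in transcripts of 13 other genes. For Atp5c1, the gamma subunit of the central stalk, the log2 change was -0.07 (adjusted p = 0.427).

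Subunit c, which forms the rotating ring, is encoded by 3 genes that give the same mature protein. Atp5g3 was at 110.8 to 130.5 CPM, Atp5g1 at 16.1 to 20.2 CPM and Atp5g2 at 3.12 to 4.73 CPM. Atp5g1 had 18.6, 19.0 and 20.2 CPM in WT and 17.7, 16.1 and 17.4 CPM in KO, with no overlap (log2 fold change -0.17, 95% interval -0.35 to 0.00, adjusted p = 0.258). The values of Atp5g2 (log2 fold change 0.04, adjusted p = 0.945) and Atp5g3 (-0.02, adjusted p = 0.927) overlapped. Per kilobase the order in WT was Atp5g3 at 166.2, Atp5g2 at 5.26 and Atp5g1 at 4.08 CPM per kb, since the principal transcript of Atp5g1 is 4715 bases long. The level of Atp5g2 is uncertain, because 87.4% of its 50-base stretches also stood in transcripts of 2 other genes.

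**Figure D2:**
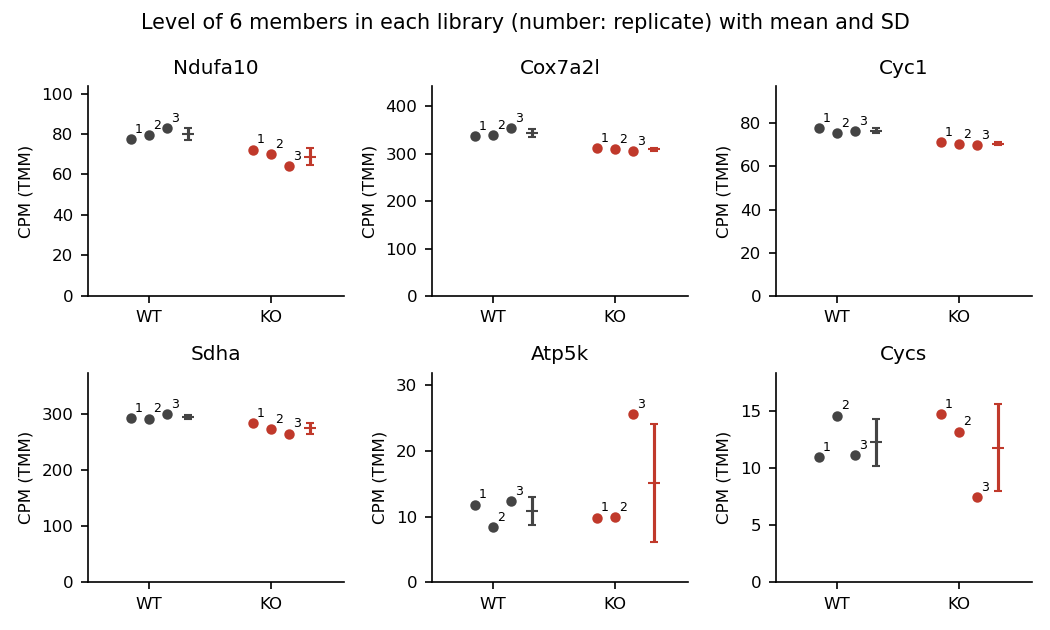
Level in CPM (vertical axis, from 0) of 6 members in each WT and KO library, numbered by replicate, with the mean and SD of each genotype beside the points. Ndufa10, Cox7a2l, Cyc1 and Sdha have no overlap between genotypes, while in Atp5k KO 3 stands at 25.5 CPM and in Cycs at 7.47 CPM, apart from the other libraries.

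The members whose 3 KO values did not overlap the 3 WT values all lay on the lower side. There were 13 lower in KO (15.1%, beside 13.0% of all genes) and 0 higher (beside 12.6% of all genes), where 25.7% of all genes had no overlap in either direction. The share of lower members was thus near the background, and that of higher members was below it. This difference was not tested. These counts rest on CPM scaled with the TMM factors. The 13 were Ndufs7, Ndufa8, Ndufa9, Ndufa10, Ndufa11, Ndufaf8, Sdha, Cyc1, Uqcrc2, Cox7a2l, Atp5a1, Atp5g1 and Atp5h. With KO 3 left out, 20 members were lower (23.3%, beside 17.4% of all genes) and 1 was higher (1.16%, beside 18.1%).

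The level of short transcripts differed between libraries of the same genotype. Of the 36 members with a principal transcript under 800 bases, 17 (47.2%) were highest in KO 3 and 13 (36.1%) in WT 3. The median log2 deviation of these 36 from each gene's mean of the 6 libraries was -0.03, -0.10 and 0.10 in WT 1, 2 and 3 and -0.05, -0.10 and 0.14 in KO 1, 2 and 3. Replicate 3 was thus the high library in each genotype. For all 1221 tested genes under 800 bases replicate 3 was also the high library by the median deviation, with 0.12 in KO 3 and 0.06 in WT 3. Of these genes 34.8% were highest in KO 3 and 18.8% in WT 3, both smaller shares than among the members. For the 50 members of 800 bases or more the median deviation was -0.02 in KO 3 and 0.06 in WT 3, and 42% of them were highest in WT 3, beside 15.5% of all genes of that length. The high level of members in WT 3 was thus not limited to short transcripts. The median log2 fold change of the short members was -0.01, and without KO 3 it was -0.10. That of all 1221 short genes went from 0.03 to -0.06, and that of the long members from -0.04 to -0.02. Whether RNA quality or library preparation has a part in this was not tested.

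**Figure D3:**
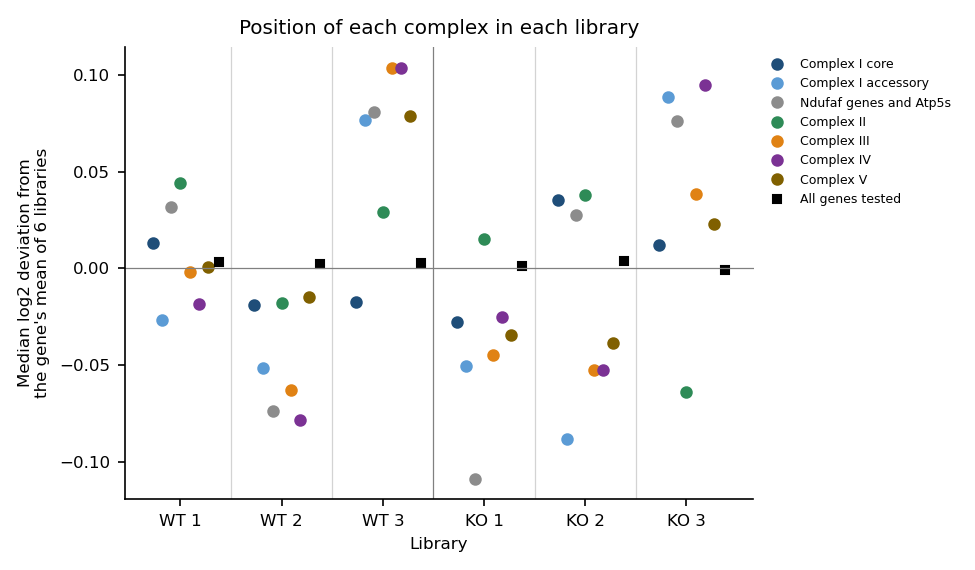
Median log2 deviation of each complex from the genes' means of the 6 libraries (vertical axis) in each library (horizontal axis), with black squares for all genes tested. The accessory subunits of complex I stand at 0.08 in WT 3 and 0.09 in KO 3 and below 0 in the other libraries.

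Atp5k, subunit e of the ATP synthase, which helps its dimers to form, had the highest ratio of KO 3 to the other libraries. It had 11.8, 8.45 and 12.4 CPM in WT and 9.85, 9.92 and 25.5 CPM in KO, so that KO 3 was 2.43 times the mean of the other 5 libraries. Its log2 fold change of 0.48 (95% interval -0.27 to 1.23, adjusted p = 0.473) became -0.14 without KO 3. Without the filter on low counts Atp5k was called (adjusted p = 0.0195), a direction that turned without KO 3 in the fit with the filter. Its principal transcript has 371 bases, the shortest of all members. The complex I accessory subunits Ndufb9, Ndufa3 and Ndufa1 were 1.88, 1.51 and 1.47 times the mean of the other libraries in KO 3. Their log2 fold changes of 0.25, 0.12 and 0.13 became -0.18, -0.16 and -0.12 without KO 3. On the other side stood Cycs at 0.577 times and Ndufb4, an accessory subunit of complex I, at 0.686 times. These genes were named for their values in KO 3, which are a description.

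**Figure D4:**
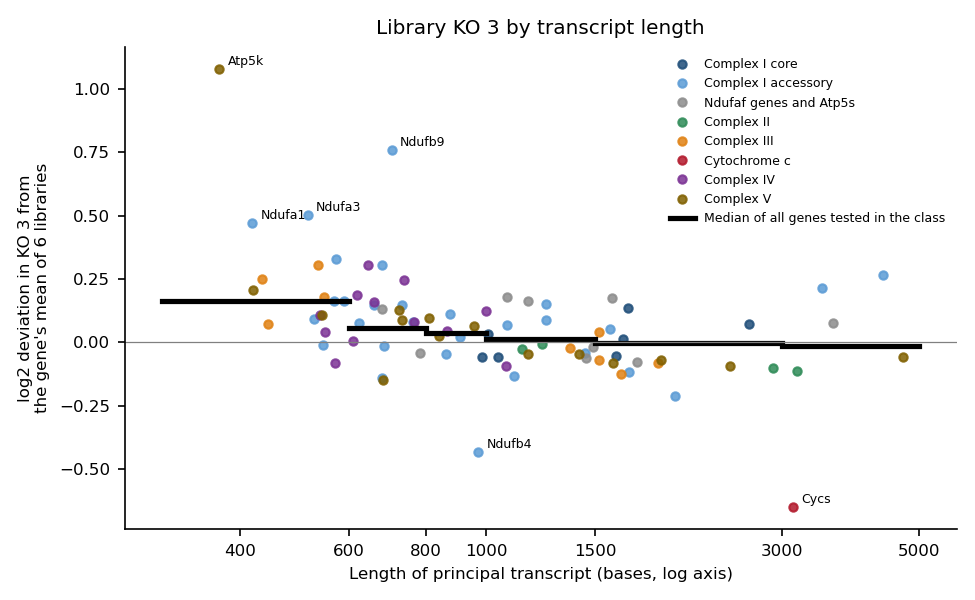
Log2 deviation in KO 3 from each gene's mean of the 6 libraries (vertical axis) against the length of the principal transcript (horizontal axis, log scale) for the 86 members, coloured by complex; black lines give the median of all tested genes in each length class. The median of all genes under 600 bases is 0.16, and Atp5k, Ndufa3 and Ndufa1 of that class lie above it; that of 600 to 800 bases is 0.06, and Ndufb9 lies above it.

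Levels per kilobase of principal transcript differed between complexes. The WT medians were 107.2 CPM per kb for complex V, 95.02 for complex IV, 64.4 for complex III, 62.7 for complex II, 39.2 for the core and 37.1 for the accessory subunits of complex I. Within each complex the members ranged widely, so the neighbours in this order overlap. After Atp5b, the highest levels were those of Cox7a2l at 319.4 CPM per kb and of the alpha subunit gene Atp5a1 at 283.7 CPM per kb. The lowest was that of Ndufb2, an accessory subunit of complex I, at 0.894 CPM per kb. Cycs stood at 3.93 CPM per kb. The principal transcripts of Ndufb2 and Cycs have 4371 and 3123 bases, with 315 coding bases in each. Their low levels per kilobase thus depend on the transcript chosen. Of the 86 members 40 shared some 50-base stretch with transcripts of other genes, 13 of them over more than 20% of the transcript, and 30 overlapped an exon of another gene; whether counting used strand was not stated in those sources.

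**Figure D5:**
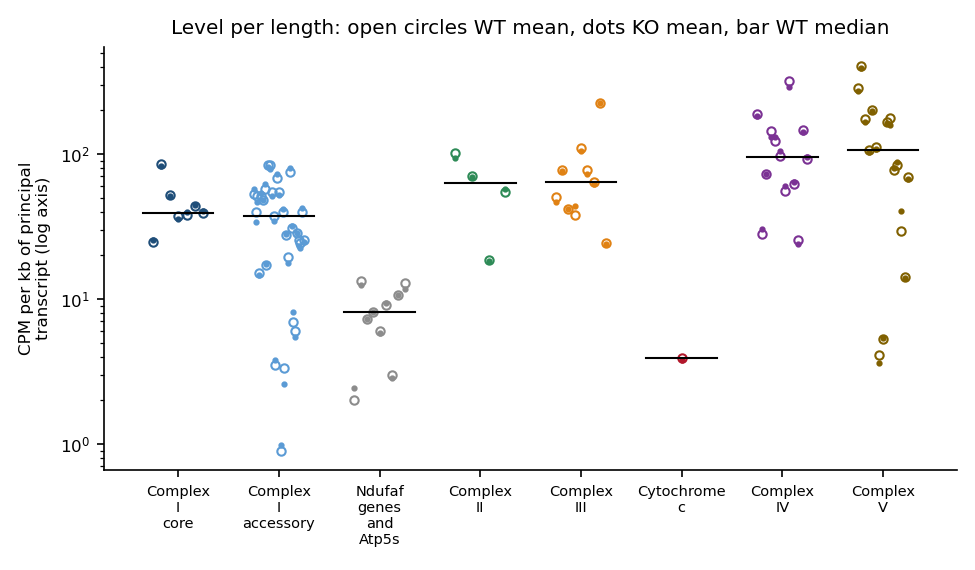
Level of each member in CPM per kilobase of principal transcript (vertical axis, log scale) by complex (horizontal axis); open circles are WT means, dots KO means and bars the WT median of each complex. WT medians run from 8.17 for the Ndufaf genes with Atp5s, leaving out the single gene Cycs, to 107.2 for complex V, and the WT and KO marks of most genes coincide.

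Outside the chosen names, 8 lists of genes that serve the chain held 98 tested genes, of which 7 were called (7.14%, beside 6.45% of all genes), 1 higher and 6 lower in KO. Among 11 assembly factors of complex I, Tmem126a rose and Dmac1 fell. Tmem126a had 16.4, 15.9 and 15.8 CPM in WT and 20.7, 23.5 and 19.8 CPM in KO, a log2 change of 0.41 (SE 0.09, adjusted p = 0.0216). Dmac1, a factor of the distal membrane arm, had 23.6, 23.2 and 23.9 CPM in WT and 18.1, 16.7 and 17.8 CPM in KO, a log2 change of -0.42 (SE 0.07, adjusted p = 0.00834). In both genes the genotypes were well apart. Among 10 assembly factors of complexes II and III, Uqcc3 fell, from 26.6 to 28.5 CPM in WT to 20.9 to 23.0 CPM in KO (log2 fold change -0.31, adjusted p = 0.0316).

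Among 23 assembly factors of complex IV, Cox14, which acts in the synthesis of the mitochondrially encoded subunit COX1, fell with 31.9, 33.5 and 33.4 CPM in WT and 23.0, 26.5 and 23.7 CPM in KO, a log2 change of -0.43 (SE 0.07, adjusted p = 0.0088). Cox10, which makes heme O for that subunit, fell by less (log2 fold change -0.35, adjusted p = 0.0353, and 0.0556 by DESeq2). Among 13 genes of coenzyme Q synthesis, Coq2, the prenyltransferase, fell (log2 fold change -0.28, adjusted p = 0.0286). Among 10 other electron donors and carriers, Sqor, which passes electrons from sulfide to coenzyme Q, fell from 16.1 to 17.9 CPM in WT to 10.8 to 13.0 CPM in KO (log2 fold change -0.50, adjusted p = 0.0168). In the same list Ucp2, an uncoupling protein, passed by DESeq2 (adjusted p = 0.0185) but not by edgeR (log2 fold change -0.19, adjusted p = 0.0787). Dmac1 and Cox14 kept an adjusted p under 0.05 whichever library was left out (highest 0.0421 and 0.0478). The other 5 lost it without at least 2 of the libraries, Tmem126a without KO 2 or any WT library, Uqcc3 without KO 1, KO 3 or any WT library, Cox10 without KO 1, KO 2 or any WT library, Coq2 without KO 2, KO 3 or any WT library, and Sqor without WT 1 or WT 3.

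In the 3 other lists 0 genes were called by edgeR. Of the 13 mitochondrially encoded subunits 10 were tested, 0 had an unadjusted p under 0.05, and their median log2 fold change was 0.05. Their sum was 15309, 18813 and 19629 CPM in WT and 19823, 17452 and 18181 CPM in KO, with WT 1 the lowest. The gene with the smallest p was mt-Co3, a core subunit of complex IV (log2 fold change 0.17, adjusted p = 0.363), and it had 11.1, 11.4 and 10.9 CPM in WT and 11.9, 12.4 and 13.2 CPM in KO. Levels within this list differed widely, and mt-Co1 of the same complex had 8541 to 11295 CPM. The genes mt-Nd3, mt-Nd4l and mt-Atp8 were too low to be tested. The reason for this spread was not tested, and counts of these genes are taken as uncertain. Of 6 assembly factors and inhibitors of complex V, Atpif1, the inhibitor of the ATP synthase, had the smallest p (log2 fold change 0.95, adjusted p = 0.226; 1 of the 6 had an unadjusted p under 0.05). It had 29, 41 and 47 reads in WT and 41, 52 and 151 reads in KO, so KO 3 was the high library here too. Of 15 regulators of mitochondrial transcription and biogenesis, Gabpb1, a subunit of the ETS factor NRF2, had the smallest p (log2 fold change 0.12, adjusted p = 0.188; 2 of the 15 had an unadjusted p under 0.05).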

How the data were processed

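RNA-seq read counts per gene, as deposited by the authors for 3 WT and 3 KO libraries, were used. Per the submitters' processing notes, fastp 0.23.2, HISAT2 2.1.0, Picard and DESeq2 1.34.0 were used with mm10; counter, strand setting and annotation were not given in those notes or the other sources used here. Library totals are 18167053 to 22502804 reads. Counts were tested with edgeR 4.0.16 (R 4.3.3; TMM, quasi-likelihood test, at least 10 reads by filterByExpr, Benjamini-Hochberg adjustment over all 13602 tested genes, threshold 0.05). DESeq2 1.42.0 and limma 3.58.1 (voom) were alternatives, with other scalings, no filter, GC and length offsets, the Y-linked share, a replicate block, and each library left out. The standard error is the log2 fold change divided by the square root of F. Transcript lengths are those of principal transcripts in GENCODE M21. The procedure was run on simulated counts with known changes, with and without a length bias in KO 3. The outcome is not given here.

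Members and lists were chosen with earlier results of these data known. Named were, in each complex, the 3 members of smallest p and the highest per kilobase, all of complex II, Cyc1, Cycs, the paralogs, members beside the 2 CPM limit, and up to 3 called genes of each other list (otherwise that of smallest p). Dendritic cell markers were also summed (69.8 to 93.9 CPM in WT, 65.8 to 80.6 in KO). Values of 1 member chosen by this rule are not reported here.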

Additional observations from a re-analysis of the deposited data

How the results depend on the processing

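Counts of called genes depended on the settings. Among all genes 877 were called, 1624 without the filter, 1355 at an adjusted p under 0.1, and 344 to 848 with 1 library left out (344 without WT 1 or WT 2). Members called were 0, but 2 without the filter and 2 at an adjusted p under 0.1; without the filter Ndufa10 had a log2 fold change of -0.23. In the other lists 7 genes were called, and 2 to 5 with 1 library left out (2 without WT 1 or WT 3). Between WT and KO libraries of the same number, deviations from the genotype means correlated at -0.14, -0.05 and 0.15 for replicates 1, 2 and 3. With 3 libraries in each genotype, these values cannot decide whether the numbers pair the libraries. With the replicate block 738 genes of all and 0 members were called, and in the other lists 4, also 4 with the block and a GC and length offset. With 1 library left out, medians ranged from -0.00867 to 0.0343 for complex I core, -0.0848 to 0.0472 for its accessory subunits, -0.0534 to 0.0172 for II, -0.0796 to 0.0125 for III, -0.0198 to 0.0553 for IV and -0.0765 to -0.00271 for V. The counts of members without overlap were recomputed without KO 3, chosen after seeing the data.

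Signs of several estimates turned, those of Atp5k, Ndufb9, Ndufa3 and Ndufa1 without KO 3 among them. With the Y-linked share as covariate log2 fold changes were -0.0395 for Atp5g2, -0.0230 for Cox7b, 0.0378 for Cycs, 0.00706 for Ndufaf6, 0.0141 for Sdhb and 0.0209 for Sdhc. Sdhc was at 0.00951 with the GC and length offset, 0.0104 with offset and replicate block, 0.000447 by library size and 0.00366 by upper quartile; Uqcrh was at 0.00322 and 0.00711 under the last 2 scalings, and Ndufa4 at -0.000953 with offset and block. With 1 library left out, ranges across 0 were -0.0966 to 0.210 for Atp5g2, -0.0899 to 0.0452 for Atp5g3, -0.103 to 0.00270 for Cox4i1, -0.0122 to 0.132 for Cox7b, -0.256 to 0.184 for Cycs, -0.00497 to 0.0789 for Ndufa4, -0.162 to 0.0248 for Ndufa6, -0.149 to 0.0973 for Ndufaf6, -0.0487 to 0.0153 for Sdhb, -0.0637 to 0.0408 for Sdhc and -0.108 to 0.0528 for Uqcrh. The cause was not tested.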
